A study of Mus musculus with 16 samples.

Results

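Fibro-inflammatory progenitors (FIPs) were compared with smooth muscle cells (SMCs), both sorted from epididymal white adipose tissue. The mice were C57BL/6 of postnatal day 7. The comparison was defined by the sub-population named in the sample labels and used 8 of the 16 libraries of the series, 4 of FIPs and 4 of SMCs. The name SMCs is that of the sample titles. The deposited table heads the same columns SMLCs, and they were matched by replicate number. Both populations were Pdgfrb-expressing cells isolated freshly by flow cytometry, and the labels name no treatment or genetic change. Pdgfrb is the beta receptor of platelet-derived growth factor, carried by mural cells and adipose progenitors. The other 8 libraries, of mesothelial-like cells (MLCs) and adipocyte precursor cells (APCs) from the same tissue and age, served only to show where a level stood among the 4 populations. The sources used here do not give the antibodies that defined the sub-populations, so a surface gene may have been part of a gate. They also leave the number of animals per library unstated, and the spread that p-values measure may therefore be technical.

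FIPs are stromal cells of the connective tissue planes of fat, known for making matrix and chemokines and for differentiating poorly into adipocytes. Smooth muscle cells wrap arteries and veins and contract through a dedicated set of actin, myosin and calcium-handling proteins. Mesothelium is the epithelium that covers the fat pad.

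The measurement was bulk RNA sequencing of whole sorted populations, given as normalized counts per gene. The FIP libraries held 23.0 to 25.4 M reads (M, mega) and the SMC libraries 9.20 to 19.6 M, with SMC replicate 3 the shallowest. Log2 levels correlated at 0.991 to 0.994 between FIP libraries, at 0.976 to 0.988 between SMC libraries and at 0.908 to 0.929 across the populations. Between 13417 and 13750 genes reached a normalized count of 10 in the FIP libraries, against 14348 to 14709 in the SMC libraries.

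The difference between the populations was lopsided. Of 14185 genes tested, 651 were called higher in FIPs and 1712 were called higher in SMCs, where a call is an adjusted p under 0.05 (limma, Benjamini-Hochberg over all genes tested) and at least a 2-fold difference. These are the backgrounds against which the gene groups below are read, 4.59% of tested genes higher in FIPs, 12.1% higher in SMCs and 16.7% called in either direction. The groups were chosen with earlier results of these data known, so their counts are descriptive. The calls of at least 8-fold numbered 62 higher in FIPs and 403 higher in SMCs. By level, under a mean normalized count of 100 there were 204 calls higher in FIPs and 1004 higher in SMCs, and from 100 to 1000 there were 211 and 563. At 1000 and above the order turned, with 236 higher in FIPs and 145 higher in SMCs. The split depends on scaling. FIPs accounted for 27.5% of all calls as deposited, 44.6% after quantile normalization (1022 higher in FIPs, 1272 in SMCs) and 18.5% after scaling to equal totals (484 and 2133), a scaling that moved the median of all genes by -0.22 on the log2 scale. Under 100, the calls were nearly even after quantile normalization, 570 higher in FIPs and 607 in SMCs, but 160 and 1221 with equal totals. From 100 to 1000 they were 261 and 492 after quantile normalization, and 152 and 714 with equal totals. At 1000 and above, the calls numbered 191 higher in FIPs and 173 higher in SMCs after quantile normalization, but 172 and 198 with equal totals, so the order there turns with the scaling. In bulk samples a larger number of cells of one type and more RNA per cell cannot be told apart.

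**Figure D1:**
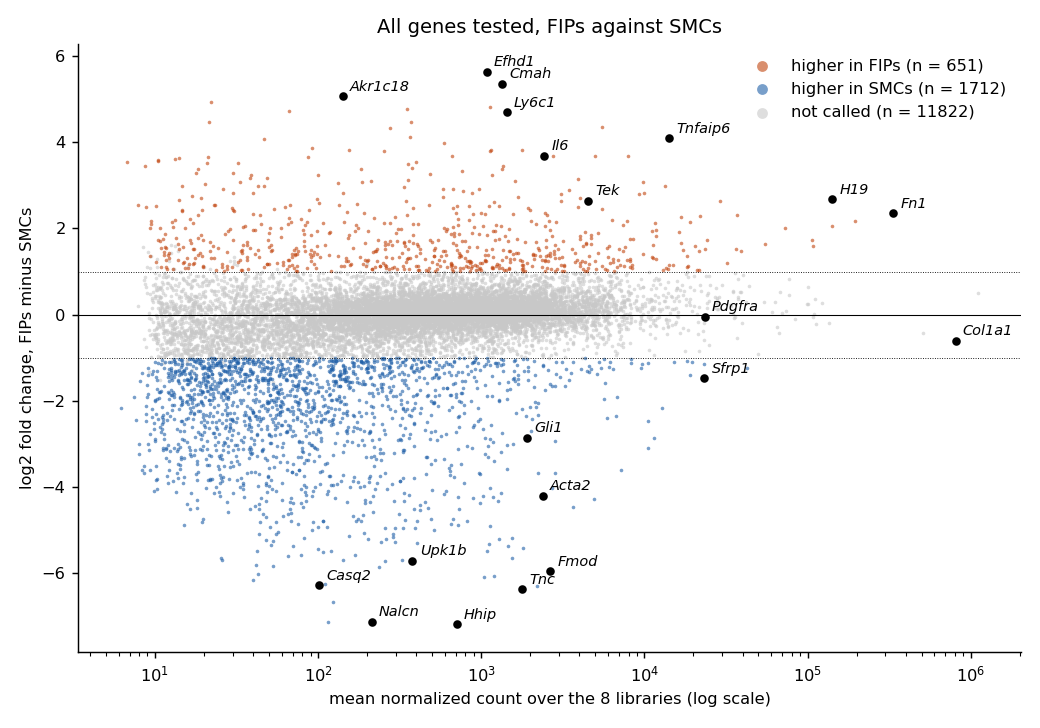
Log2 fold change of FIPs over SMCs (vertical axis) against the mean normalized count of the 8 libraries (horizontal axis, log scale) for 14185 genes, with called genes in colour. Calls higher in FIPs (651) spread to the highest levels, while calls higher in SMCs (1712) reach further from 0 and crowd the left of the plot.

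The contractile genes that define smooth muscle were higher in the libraries labelled SMCs, though not all of them. Acta2, smooth muscle actin, had 237, 258, 239.6 and 211 in the FIP libraries, against 5235, 4169.9, 5858 and 2885 in the SMC libraries. All SMC libraries stood far above all FIP libraries (log2 fold change -4.21 ± 0.16 SE, adjusted p = 4.61e-11, 18.5-fold higher in SMCs). Myh11, the myosin heavy chain of smooth muscle, had 34.6, 46.2, 54.4 and 29.9 in FIPs, against 1446, 1633, 1289.6 and 681 in SMCs (log2 fold change -4.86 ± 0.24 SE, adjusted p = 6.02e-10). It did not set SMCs apart from MLCs, which had 1377, 1193, 1325 and 1256, within the SMC range. Acta2 had 1143 to 1627 in MLCs, below every SMC library. SMC replicate 4 was the lowest of the SMC libraries for Acta2 and Myh11, as it was for Tagln (2250.1, 1747, 2869 and 1122 in SMCs, 2.90 log2 units above FIPs) and for Cnn1, calponin (at most 8.16 in FIPs, against 213, 263, 303 and 101 in SMCs). Casq2, a calcium-storage protein of the sarcoplasmic reticulum, had 2.97, 0, 2.86 and 0 in FIPs, 6 reads in all, against 145, 457, 57.6 and 145 in SMCs, where replicate 2 was highest. Pdlim3, an actinin-associated protein of muscle, was highest in that library too, at 2987, and 39.97-fold higher in SMCs than in FIPs. Myocd, the transcriptional co-activator of this programme, was covered by 2 reads in all FIP libraries and had 53.7, 39.5, 12.8 and 18.4 in SMCs.

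Of 28 tested members of the contractile list, 1 was higher in FIPs and 13 were higher in SMCs, with a median log2 fold change of -0.98 beside 0.01 over all genes. The other 14 were not called, among them widely expressed cytoskeletal genes. Caldesmon, Cald1, had 7608, 6964, 7563 and 7561 in FIPs, against 7238, 6624, 7526 and 5931 in SMCs (0.13 ± 0.071 SE on the log2 scale). Smoothelin, Smtn, and tropomyosin 1, Tpm1, differed by -0.33 and -0.49, and desmin, Des, by -0.15 with libraries that overlapped. The member higher in FIPs was Aoc3, a vascular amine oxidase also made by adipose stroma, with 8468, 8144, 8980.3 and 8419 in FIPs, against 3823, 2730.1, 3847 and 3259 in SMCs. Of 21 pericyte and vasoactive genes 3 were higher in FIPs and 14 in SMCs, those in SMCs including Gucy1a1, a subunit of the nitric oxide receptor (15.1-fold), Ednra, an endothelin receptor (5.92-fold), and Cspg4, the NG2 proteoglycan (3.68-fold). Rgs5 and Kcnj8, which mark pericytes, were called higher in SMCs at low levels. Rgs5 had 13.9, 19.4, 28.6 and 25.4 in FIPs, against 106, 23.5, 105 and 56.2 in SMCs, with SMC replicate 2 inside the FIP range. Kcnj8 had 64.3, 58.2, 58.2 and 69.8 in FIPs, against 181, 183, 156 and 218 in SMCs, with no overlap. The 3 members higher in FIPs were Enpep, an aminopeptidase, Agtr1a, an angiotensin II receptor, and Vtn, vitronectin, at 3.96-fold, 2.58-fold and 5.10-fold. With quantile normalization 10 pericyte members in place of 14 were called higher in SMCs. The receptor that defines the parent gate, Pdgfrb, had 2678, 2758, 3131 and 2882 in FIPs, against 4165, 3435, 4121 and 3429 in SMCs, a difference of -0.40 ± 0.076 SE that fell short of a call, and Pdgfra, the receptor that marks fibroblasts, was at the same level in both (21767 to 24120.1 in FIPs, against 21130.3 to 25503 in SMCs).

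The genes with the largest fold difference in favour of FIPs were enzymes, secreted proteins and surface receptors that were low in SMCs. Efhd1, a mitochondrial calcium-binding protein (chromosome 1, 87264353 to 87310841), led them with 2065, 2065, 2417 and 1922 in the FIP libraries, against 45.3, 52.3, 38.4 and 31.7 in the SMC libraries. It was 49.99-fold higher in FIPs (log2 fold change 5.64 ± 0.14 SE, adjusted p = 7.25e-13). Cmah, which hydroxylates sialic acid (chromosome 13, 24327404 to 24477289), had 2659, 2807, 2372 and 2707 in FIPs, against 51.6, 54.4, 89.7 and 62.3 in SMCs, a 41.1-fold difference. Both genes separated the populations completely, and the APC means were 78.4 and 84.3. Ly6c1, a surface antigen whose reads may be shared with a near-identical copy, Ly6c2, had 2577, 2483, 3006 and 2973 in FIPs, against 106, 90.7, 149 and 84.8 in SMCs (4.70 ± 0.14 SE). Akr1c18, which inactivates progesterone, was 33.8-fold higher, Pcdh20, a protocadherin, 28.1-fold, and Nell1, a secreted growth regulator of bone, 17.4-fold.

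Several of the leading genes act on immune signals. Tnfaip6, a hyaluronan-binding protein induced by tumour necrosis factor, had 26048, 25019, 28651 and 27710.4 in FIPs, against 1533, 1028, 2487 and 1519 in SMCs (log2 fold change 4.10 ± 0.18 SE, adjusted p = 1.75e-10). SMC replicate 3 was the highest SMC library and still far below every FIP library. In APCs, Tnfaip6 had 9597 to 12164. Ptx3, a soluble pattern-recognition protein, had 8712, 8719.9, 12653 and 11401 in FIPs, against 512, 319, 1021 and 359.7 in SMCs, and here too replicate 3 stood highest among the SMC libraries. Ackr2, a decoy receptor that scavenges inflammatory chemokines, was 22.4-fold higher in FIPs, Entpd1, the ectonucleotidase CD39, 15.9-fold, and Ifi205, an interferon-inducible nuclear protein, 14.2-fold. Edn1, the vasoconstrictor endothelin 1, had 161, 123, 217 and 182 in FIPs, against 8.42, 8.54, 32.03 and 5.11 in SMCs, whereas its receptor Ednra was the higher in SMCs. Sema3e, a repulsive guidance cue, and Tmeff2, a transmembrane protein with follistatin domains, were 20.1-fold and 14.1-fold higher in FIPs.

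By amount, the genes with the greatest difference in FIPs were matrix genes and an imprinted RNA. Fn1, fibronectin, had 543196, 542224, 591184 and 564244 in the FIP libraries, against 129797, 84717, 145408 and 89617 in the SMC libraries. It was 5.12-fold higher in FIPs (log2 fold change 2.36 ± 0.17 SE, adjusted p = 2.87e-08). Fbn1, fibrillin 1, had 320100.0 ± 10120.3 in FIPs and 71640.3 ± 10165 in SMCs (SD, n = 4 each), Postn, periostin, 228324 ± 18163 in FIPs and 54572 ± 3890.4 in SMCs, and Fstl1, a secreted follistatin-like glycoprotein, 163186 ± 14417 in FIPs and 48990.3 ± 1816 in SMCs. H19, a maternally expressed long non-coding RNA, averaged 244757 ± 8449 in FIPs and 38316 ± 2226 in SMCs, a 6.39-fold difference. Values are not scaled to gene length, so a difference in amount favours long and abundant transcripts.

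**Figure D2:**
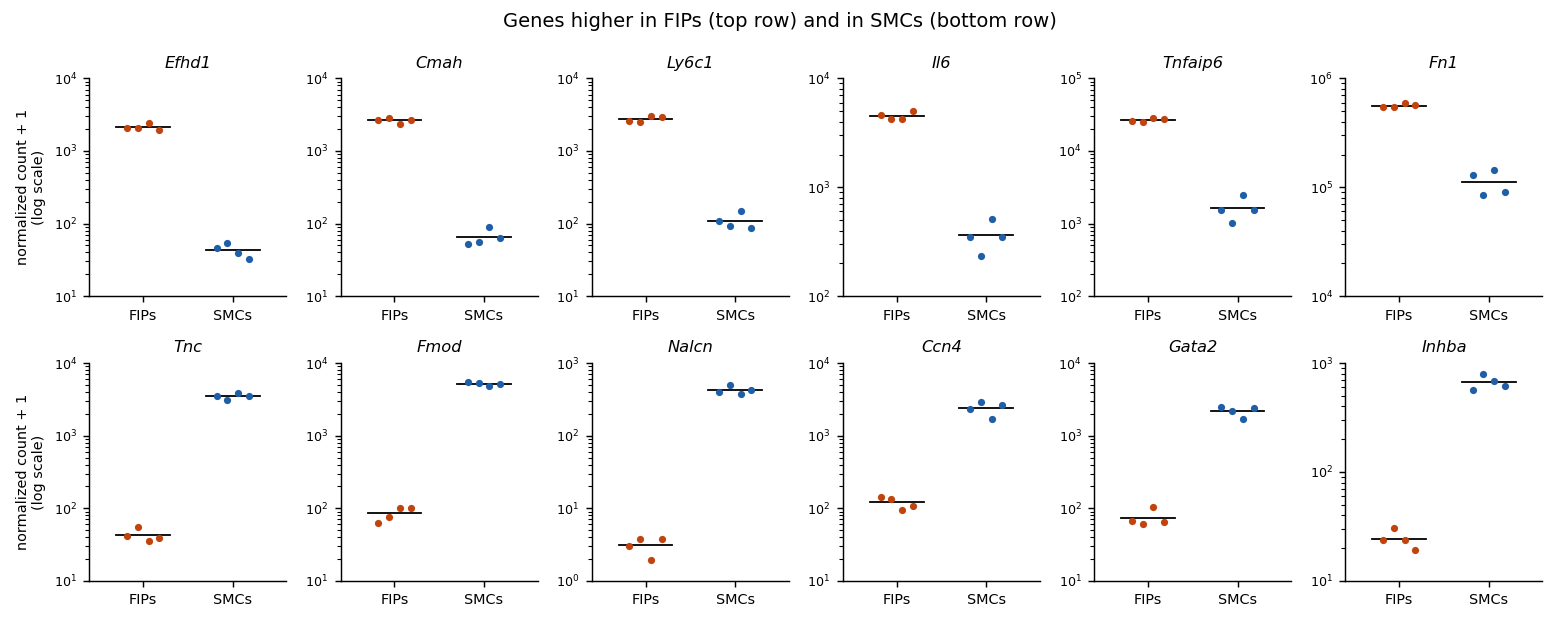
Normalized count plus 1 on log axes in each library for 6 genes higher in FIPs (top row) and 6 genes higher in SMCs (bottom row), with FIPs left of SMCs in each panel. Dots are libraries and bars are means of 4 libraries, and in none of the 12 panels do the populations overlap.

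The genes with the largest rise in SMCs were close to absent from FIPs. Hhip, the cell-surface decoy receptor that binds hedgehog ligands and is itself a hedgehog target (chromosome 8, 79965850 to 80058060), had 5.94, 9.25, 7.64 and 6.35 in the FIP libraries, against 2869, 1239, 747 and 786 in the SMC libraries. SMC replicate 1 was more than 2 times any other SMC library, and every SMC library exceeded every FIP library (log2 fold change -7.20 ± 0.33 SE, adjusted p = 2.97e-10, 147-fold higher in SMCs). Tnc, tenascin C, a matrix glycoprotein of tendon sheaths, vessels and healing wounds, had 40.6, 54.5, 34.4 and 38.1 in FIPs, against 3497, 3142, 3892 and 3509.9 in SMCs (log2 fold change -6.37 ± 0.12 SE, adjusted p = 1.02e-13). The SMC libraries lay close together for this gene, and Tnc was 82.8-fold higher in them than in FIPs.

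Nalcn, a sodium leak channel, had 1.98, 2.77, 0.955 and 2.72 in FIPs, 9 reads in all, against 395, 504, 380.0 and 420.0 in SMCs. Its neighbour on chromosome 14, Itgbl1, an integrin-like secreted protein, lay 32.6 kb away with no other gene of the table between them and had 31.7, 22.2, 30.6 and 29.02 in FIPs, against 1658, 2655, 1614 and 2256 in SMCs. Elfn2, a synaptic leucine-rich protein, was covered by 3 reads over the FIP libraries, which bear no fold, and had 182, 265, 222 and 253 in SMCs. Cntnap3, a contactin-associated cell adhesion protein, had 6 reads in all FIP libraries, against normalized counts of 295, 272, 177 and 237 in SMCs.

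Transport, barrier and matrix genes made up most of the remaining leaders. Cldn11, a claudin of myelin and of the testis barrier, had at most 1.91 in FIPs, against 201, 309.5, 91.8 and 269.8 in SMCs. Aqp5, a water channel, had 4 reads in all FIP libraries, against normalized counts of 131, 111, 109 and 69.5 in SMCs, and Art4, a blood-group ADP-ribosyltransferase, was 58.1-fold higher in SMCs. Fmod, fibromodulin, a proteoglycan that binds collagen fibrils, had 61.3, 75.8, 98.3 and 101 in FIPs, against 5578, 5264, 4817 and 5099 in SMCs. Cxcl14, an orphan chemokine, had 45.5, 44.4, 21.96 and 20.9 in FIPs, against 2531, 1554, 3982 and 1358 in SMCs, highest in SMC replicates 1 and 3. By amount the leaders were Sfrp1, a secreted Wnt antagonist (12307 ± 1043 in FIPs and 34333 ± 4069.7 in SMCs), Hmcn1, hemicentin 1, a basement membrane linker (2757 ± 233 in FIPs and 20249 ± 1327 in SMCs), Mfap4, a microfibril protein (10444 ± 1322 in FIPs and 27715 ± 2898 in SMCs), and the nuclear RNA Malat1 (14575 ± 3333 in FIPs and 32065 ± 5353 in SMCs), all SD with n = 4 each. Rn45s, the ribosomal RNA precursor, also qualified, with 28506, 34136, 24260.1 and 13961 in FIPs, against 65558, 29937, 77905 and 66195 in SMCs. SMC replicate 2 lay within the FIP range for it, and the call was lost in 1 of 16 alternative settings.

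The interstitial progenitor list gathers genes of the Dpp4-positive progenitors that lie in the fibrous planes of fat. All 25 members were tested and 21 were higher in FIPs, none in SMCs, with a median log2 fold change of 2.17. All 25 had libraries that did not overlap, beside 49.7% of all tested genes. The list was chosen with earlier results of these data known and holds several leading genes of this comparison. Its counts therefore describe the list and are no independent test of it. Counts were 19 with equal totals and 22 after quantile normalization. Dpp4 itself, a dipeptidase of the cell surface, had 2139.9, 1645, 2219 and 2209 in the FIP libraries, against 345, 321, 450.5 and 241 in the SMC libraries (log2 fold change 2.62 ± 0.15 SE, adjusted p = 2.76e-09). Cd55, which shields cells from complement, had 13227, 12399, 13244 and 13533 in FIPs, against 3845, 3515, 4311 and 3999 in SMCs and was 3.35-fold higher in FIPs. Bmp7, a bone morphogenetic protein, and Dact2, an inhibitor of Wnt and TGF-beta signalling, were 9.60-fold and 27.6-fold higher. Sema3c, a secreted guidance cue, was 3.57-fold higher (17316 to 19350.1 in FIPs, against 4622 to 5829.9 in SMCs). The list also holds Efhd1, Cmah, Ly6c1, Ackr2, Fbn1 and Mfap5, which belong to the leading or the matrix genes as well.

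Some members of this list stayed high in SMCs. Pi16, a peptidase inhibitor that marks the same progenitors, had 10929, 11465, 12530.1 and 11368 in FIPs, against 4412, 4991, 4545 and 5536 in SMCs, only 2.38-fold apart, and the APC mean was 715. Ly6a, the stem cell antigen Sca-1, separated the populations more widely, with 8204, 8574, 9769 and 10477 in FIPs, against 825, 535, 1134 and 541 in SMCs. The 4 members not called were Cd34, Plac8, Uchl1 and Wnt2. Cd34, a sialomucin of progenitors and endothelium, had 31260.3 to 35463 in FIPs, against 19661 to 23473 in SMCs, a difference of 0.62 log2 units that was significant (adjusted p = 4.49e-06) but under 2-fold.

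Where inflammatory genes and chemokines were called, most were higher in FIPs, 18 of 23 calls among 40 tested members. Il6, which codes for interleukin 6, had 4618, 4208, 4265 and 4991 in the FIP libraries, against 349.6, 234, 508 and 351 in the SMC libraries. It was 12.9-fold higher in FIPs (log2 fold change 3.69 ± 0.16 SE, adjusted p = 1.84e-10). Ccl11, eotaxin, had 1982, 1672, 2468 and 2259.9 in FIPs, against 154, 97.1, 254 and 124 in SMCs, and Ccl2 and Ccl7, ligands that draw monocytes through a shared receptor, were 7.38-fold and 7.02-fold higher. SMC replicate 3 was the highest SMC library for each of these genes, and for 21 of the 25 members of the inflammatory list. It is also the library with the fewest reads, and its part in the result was not tested.

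Of 25 inflammatory and NF-kB genes 9 were higher in FIPs and 1 in SMCs, with a median of 0.78. The count higher in FIPs was 5 with equal totals and 6 after quantile normalization. Tnfrsf1b, a receptor of tumour necrosis factor, was 2.85-fold higher in FIPs, Vcam1, a ligand for leukocyte integrins, 3.39-fold, and Il1r1, the interleukin 1 receptor, 2.38-fold. Il33, an alarmin stored in the nucleus, was the exception, with 802, 845, 772 and 926 in FIPs, against 3528, 3653, 2763 and 3772 in SMCs, 4.08-fold higher in SMCs. Icam1, an adhesion receptor for leukocytes, Socs3, a feedback inhibitor of cytokine receptors, and Csf1, the macrophage growth factor, were abundant and not called, at -0.21, 0.99 and 0.70.

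Among 15 tested chemokine genes and receptors 9 were higher in FIPs and 4 in SMCs. Cxcl1, a neutrophil attractant, had 27715, 24124, 28942 and 30506 in FIPs, against 5007, 5318, 6994 and 5987 in SMCs, and Cxcl10, which attracts T cells, was 3.37-fold higher in FIPs. Cxcl12, which retains haematopoietic cells in their niche, had 5163 to 6341 in FIPs, against 3885 to 4598 in SMCs and was not called. The 4 members higher in SMCs were Cxcl14, already described, and 3 of low level, Cxcl13, Ccl9 and Cx3cl1, none of which passed 171 in any library.

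Because many chemokine promoters carry a site for NF-kB, the transcription factor of acute inflammation, whole reference promoter windows were searched on both strands. The motif was GGG, any 2 bases, and TTTCC. These windows extend beyond the stretches printed below. The motif was present in 535 of 32851 promoter windows, 1.63%. Of the 18 inflammatory and chemokine genes higher in FIPs 13 had a promoter in the reference and 4 held the motif. That is 30.8%, beside 1 of 5 members higher in SMCs (Ccl9) and 5 of 18 that were not called or not tested (27.8%), so the share was above that of all windows in each direction. For the 4 members higher in FIPs that hold the motif, the stretch from 150 bases to 1 base before the annotated start is shown. Capitals mark the motif, the sequences are RefSeq, build GRCm38.p6, written 5′ to 3′ on the strand of the gene. Cxcl1 lies at chr5:90891095-90891244 on the plus strand, Cxcl2 at chr5:90903749-90903898 on the plus strand, Il6 at chr5:30012964-30013113 on the plus strand and Nfkbia at chr12:55492648-55492797 on the minus strand.
Cxcl1: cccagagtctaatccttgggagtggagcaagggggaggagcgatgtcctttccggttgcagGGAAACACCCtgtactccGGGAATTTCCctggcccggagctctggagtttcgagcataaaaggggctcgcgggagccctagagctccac
Cxcl2: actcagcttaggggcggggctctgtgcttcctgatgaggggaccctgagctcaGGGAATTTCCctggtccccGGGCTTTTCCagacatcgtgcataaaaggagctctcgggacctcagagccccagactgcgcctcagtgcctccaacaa
Il6: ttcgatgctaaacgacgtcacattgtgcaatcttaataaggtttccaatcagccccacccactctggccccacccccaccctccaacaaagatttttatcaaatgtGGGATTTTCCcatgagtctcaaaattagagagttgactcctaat
Nfkbia: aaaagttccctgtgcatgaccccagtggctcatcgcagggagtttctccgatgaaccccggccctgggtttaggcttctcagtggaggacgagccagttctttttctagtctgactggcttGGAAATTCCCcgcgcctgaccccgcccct
Cxcl1 and Cxcl2, tandem genes on chromosome 5, each hold a pair of motifs. Those of Cxcl1 start 89 bases (opposite strand) and 71 bases (gene strand) before the start, and those of Cxcl2 start 97 and 78 bases before it, both on the strand of the gene. Il6 has 1 at 44 bases. In Nfkbia, which codes for the inhibitor of NF-kB, the single motif lies 29 bases before the start on the opposite strand. Cxcl2 was 3.19-fold and Nfkbia 2.12-fold higher in FIPs. A match describes the letters of this window and not a working site. A second motif, the CArG box (CC, a run of A or T, and GG), was searched in the same windows for the contractile list. Of its 13 members higher in SMCs 8 had a promoter in the reference and 0 held the box. Tagln, Myh11 and Myocd were among those without a promoter. The box was held by 2 of 16 members not called or not tested, beside 1.63% of all windows.

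Complement genes leaned toward SMCs. Of 15 tested members 1, Cd55, was higher in FIPs and 6 were higher in SMCs, with a median of -0.49. C2, a protease of the classical pathway, had 526, 646, 586 and 672 in FIPs, against 3001, 3191, 3585 and 2762 in SMCs. C7, part of the membrane attack complex, had 465, 561, 509.8 and 512 in FIPs, against 2012, 1929.6, 1817 and 2528 in SMCs, and for both genes every SMC library exceeded every FIP library. Cfd, adipsin, which activates the alternative pathway, had 15.8, 23.1, 11.5 and 6.35 in FIPs, against 606, 313, 858 and 217 in SMCs. C3, the central component, overlapped between the populations (13355 to 17145 in FIPs, against 13079.5 to 20994 in SMCs), and C1s1 and Serping1, a protease and its inhibitor, were not called (0.65 and -0.37).

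Interferon response genes gave few calls and followed the replicate number. Of 24 tested members 2 were higher in FIPs and 1 in SMCs. Replicate 4 was the highest library for 24 of 24 members in FIPs and for 21 of 24 in SMCs, and likewise for 24 of 24 in MLCs and 22 of 24 in APCs. Ifit1, an RNA-binding antiviral protein chosen here after its values were seen, had 121, 325, 67.8 and 704 in FIPs, against 78.97, 76.8, 76.9 and 151 in SMCs. The members called were Gbp2 and Gbp3, interferon-induced GTPases, higher in FIPs at 2.18-fold and 2.49-fold, and Oas1a, an RNA sensor, higher in SMCs at no more than 42.7. With equal totals the counts were 1 and 1, and after quantile normalization 4 and 0. Without replicate 4 of both populations the counts were again 2 and 1, and without FIPs replicate 4 alone they were 1 and 3. The source of the replicate pattern was not tested.

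Matrix genes were called in both directions, often within 1 family. Among 31 fibrillar collagen and associated genes 2 were higher in FIPs and 6 in SMCs, with a median of -0.06. Col5a3, a minor fibrillar chain, had 62704, 57866, 66761 and 58743 in the FIP libraries, against 13214, 11274, 12359.6 and 12871 in the SMC libraries (log2 fold change 2.31 ± 0.072 SE, adjusted p = 6.08e-12), and Loxl1, a collagen and elastin crosslinking enzyme, was 2.19-fold higher in FIPs. Higher in SMCs were Col11a1, a chain of cartilage-type fibrils, with 51.4, 51.8, 43.9 and 40.8 in FIPs, against 1293, 1530.5, 961 and 1408 in SMCs, Col8a1, a network chain of vessel walls (38.7-fold), Col12a1, which coats fibrils under tension (5.51-fold), and Col8a2 (4.42-fold). The abundant chains of ordinary fibrils were not called. Col1a1 averaged 637191 ± 32654 in FIPs and 977594 ± 116567 in SMCs (SD, n = 4 each), Col1a2 differed by -0.43 and Col3a1 by 0.50. Equal totals and quantile normalization raised the calls higher in SMCs to 9 and 10.

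Laminin chains were found on both sides. Lama4, Lamb1 and Lamc1, the chains of the laminin trimer of vessel and muscle basement membranes, were higher in FIPs by 4.90-fold, 2.87-fold and 3.13-fold, and Nid1, which links laminin to collagen IV, by 3.03-fold. Lama3 and Lamc3, minor chains of epithelial and other sites, and Col4a3 and Col4a4, the chains of the kidney-type collagen IV, were higher in SMCs. Lamc3 had 23.7, 19.4, 13.4 and 16.3 in FIPs, against 555, 1137, 540.2 and 344 in SMCs. Col4a4 had 365, 435, 415 and 393 in FIPs, against 4380.1, 6573, 4375 and 5586 in SMCs, highest in SMC replicate 2, and Col4a3, transcribed from the same promoter region in the other direction, was 8.07-fold higher. Npnt, nephronectin, an integrin ligand, was 13.1-fold higher in SMCs. The usual collagen IV chain Col4a1 and perlecan, Hspg2, were not called (0.55 and 0.04). In all, 4 of 25 basement membrane genes were higher in FIPs and 9 in SMCs.

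Elastic fibre genes were called on both sides, with 4 of 17 higher in FIPs and 3 in SMCs, beside unequal backgrounds of 4.59% and 12.1%. Fbn1 and Mfap5, a microfibril glycoprotein (3.16-fold), rose in FIPs together with Emilin2 (7.01-fold) and Efemp1 (2.47-fold). Ltbp2, which binds fibrillin, had 50.5, 81.4, 43.9 and 66.2 in FIPs, against 3258, 3055, 3077 and 2661 in SMCs, 50.3-fold higher in SMCs, and Fbln1, fibulin 1, was 2.22-fold higher. Elastin, Eln, had 33047 to 41172 in FIPs, against 40129.8 to 44432 in SMCs and was not called.

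Matricellular proteins and proteoglycans were called often in both directions, with 6 of 30 tested members higher in FIPs and 15 in SMCs, both shares above the background. The members summed to 1181882 to 1327368 normalized counts in FIPs, against 501004 to 580785 in SMCs, sums in which Fn1 and Postn weigh heavily. Within the CCN family of secreted matricellular proteins the members went opposite ways. Ccn3 had 1454, 1329, 1874 and 1454 in FIPs, against 237, 171, 301 and 174 in SMCs, whereas Ccn4, a Wnt-induced member, had 143, 134, 93.6 and 106 in FIPs, against 2364, 2872, 1723 and 2675 in SMCs. Ccn5 was 33.5-fold higher in SMCs. Spp1, osteopontin, had 1.98, 0.925, 4.77 and 0.907 in FIPs, against 171, 94.99, 290.4 and 67.4 in SMCs, highest in SMC replicates 1 and 3 as Ccn5 was. Thbs1, thrombospondin 1, was 6.21-fold higher in FIPs, and decorin, lumican and tenascin X (Dcn, Lum, Tnxb) were not called. Of 28 proteases and inhibitors 7 were higher in FIPs and 5 in SMCs. The plasminogen activators Plau and Plat both rose in FIPs, by 6.61-fold and 2.87-fold. Serpine2, a serine protease inhibitor of the cell surface, was 6.64-fold higher in SMCs. Adam12, a membrane protease of developing mesenchyme, was 4.38-fold higher in FIPs, and Mmp3, stromelysin, had 8.90, 12.02, 20.05 and 13.6 in FIPs, against 220.1, 141, 342 and 87.9 in SMCs.

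Hedgehog signalling was called in 1 direction, with none of 12 tested members higher in FIPs and 5 higher in SMCs under each of the scalings. In this pathway a ligand lifts the block that the receptor Ptch1 places on Smo, and Gli factors then raise Ptch1, Gli1 and Hhip. Ptch1 had 261, 352, 317 and 323 in the FIP libraries, against 2281, 3179, 2393 and 2445 in the SMC libraries (log2 fold change -3.03 ± 0.11 SE, adjusted p = 2.04e-11). Gli1 had 493, 444, 476 and 413 in FIPs, against 3247, 4001, 2615 and 3574 in SMCs (log2 fold change -2.86 ± 0.11 SE, adjusted p = 3.06e-11), a 7.28-fold difference beside 8.17-fold for Ptch1. The co-receptor Boc differed by -1.58 ± 0.058 SE on the log2 scale in the same direction. Smo, with 2904, 2718, 3002 and 2693 in FIPs, against 3534, 3613, 3523 and 3695 in SMCs, the co-receptors Gas1 and Cdon, and the factors Gli2 and Gli3 were not called. The MLC means were 333 for Ptch1, 232 for Gli1 and 4.42 for Hhip.

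Wnt ligands and their modulators were distributed over both populations. Wnt10b, a ligand that inhibits adipogenesis, had 551, 662, 617 and 553 in FIPs, against 73.7, 88.6, 55.5 and 88.9 in SMCs. Wnt11, a non-canonical ligand, had 766, 777, 929.9 and 804 in FIPs, against 132, 104, 186 and 143 in SMCs. Both were higher in FIPs without overlap. Wnt4, Wnt6 and Wnt9a were higher in SMCs by 7.605-fold, 7.33-fold and 2.63-fold. Wnt5a, a non-canonical ligand, had 4243 to 4834 in FIPs, against 7112 to 10110.4 in SMCs, just short of 2-fold and not called. Of 23 modulators 6 were higher in FIPs and 7 in SMCs. Sfrp2 and Sfrp4 were 8.92-fold and 3.84-fold higher in FIPs, Sfrp1 2.78-fold higher in SMCs. Dkk3, a divergent Dickkopf protein, had 245, 251, 239.6 and 277 in FIPs, against 2192, 1899, 1638 and 1695 in SMCs, and Dact3 was 2.59-fold higher in SMCs. Dkk2, 2.02-fold higher in FIPs, lies at the limit of the call and lost it in 6 of 16 alternative settings. Lgr4, a receptor for R-spondins, was 2.38-fold higher in FIPs and Rspo1, a ligand of that family, 2.11-fold higher in SMCs.

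BMP ligands were likewise called on both sides. Bmp7, Bmp2 and Bmp3 were higher in FIPs, while Bmp4 had 32.6, 26.8, 27.7 and 42.6 in FIPs, against 493, 519, 342 and 443 in SMCs and Bmp5 was 3.45-fold higher in SMCs. Bmper, an extracellular modulator of BMPs, was 5.38-fold higher in FIPs. Id1 and Id3, general targets of BMP signals, went opposite ways, Id1 3.96-fold higher in SMCs and Id3 2.11-fold higher in FIPs. In the activin branch, Inhba, the activin A subunit, had 22.8, 29.6, 22.9 and 18.1 in the FIP libraries, against 561, 794, 687 and 612 in the SMC libraries (log2 fold change -4.78 ± 0.16 SE, adjusted p = 1.40e-11). Inhbb was 3.59-fold higher in SMCs as well. Fst, which neutralizes activin, was 5.59-fold higher in FIPs and so was the receptor Acvr2a, at 2259, 2113, 2202 and 2150.2 in FIPs, against 629.6, 610.5, 617 and 620.2 in SMCs. Tgfb3 was 3.14-fold higher in SMCs, and the receptors Tgfbr2 and Tgfbr3 were not called.

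Among IGF and imprinted genes Igf2, a fetal growth factor, had 111099, 112068, 124968 and 117812 in FIPs, against 28740.1, 30567, 26572 and 30462 in SMCs. H19, its neighbour in the same imprinted domain, has been given above. Mest, another imprinted growth gene, was 3.78-fold higher in FIPs and Cdkn1c, an imprinted cell cycle inhibitor, 2.13-fold. The imprinted genes Dlk1, Meg3, Peg3 and Gnas did not pass the call, at 0.13, 0.05, 0.19 and -0.08. Igfbp2 and Igfbp3, which bind IGFs in the extracellular space, were higher in SMCs. Igfbp2 had 48.5, 8.32, 3.82 and 19.04 in FIPs, against 586, 583, 658 and 456 in SMCs, with FIP replicate 1 well above the other FIP libraries. Igfbp3 was 5.27-fold and Igfbp5 2.152-fold higher in SMCs.

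Growth factor genes numbered 5 higher in FIPs and 11 in SMCs of 36 tested. Pdgfa and Pdgfc, ligands of the PDGF receptors, were higher in SMCs. Pdgfa had 48.5, 55.5, 54.4 and 45.3 in FIPs, against 319, 332, 235 and 288 in SMCs, and Pdgfc was 2.50-fold higher. Fgf10, a mesenchymal factor that acts on epithelium, had 4234, 3909.7, 4332 and 4407 in FIPs, against 1289.8, 657, 1097 and 795 in SMCs, and Fgf18 and Fgf16 were 2.38-fold and 5.20-fold higher in FIPs. The receptors Fgfr1 and Egfr were not called, while Fgfr3 was 9.40-fold higher in SMCs. Ret, a receptor for glial-derived factors, was 5.95-fold higher in FIPs, and Gfra2, a co-receptor of the same family, 6.75-fold higher in SMCs. Notch genes gave few calls, none higher in FIPs and 2 of 15 in SMCs, both of low level, and Notch3, a mural cell receptor, had 1649 to 1954 in FIPs, against 1373 to 2111 in SMCs.

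Of 19 retinoid genes 1 was higher in FIPs and 7 were higher in SMCs. Aldh1a2, which makes retinoic acid, had 54.4, 40.7, 63.97 and 69.8 in FIPs, against 1848, 1565, 1435 and 1501 in SMCs (log2 fold change -4.79 ± 0.15 SE, adjusted p = 4.95e-12). The target gene Cyp26b1, which degrades retinoic acid, had 14.8, 23.1, 17.2 and 22.7 in FIPs, against 236, 949, 203 and 168 in SMCs, and SMC replicate 2 was about 4 times the next library. Dhrs3, which reduces retinaldehyde, and Crabp2, which carries retinoic acid to the nucleus, were 5.14-fold and 12.6-fold higher in SMCs. Aldh1a3, a related synthetic enzyme, was not called (2818 to 3827 in FIPs, against 1979 to 2328 in SMCs), and Adh1, an alcohol dehydrogenase, was 2.49-fold higher in FIPs.

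Lineage transcription factors leaned toward SMCs, with 3 of 28 tested higher in FIPs and 13 higher in SMCs. Gata2 had 65.3, 60.1, 102 and 63.5 in the FIP libraries, against 2467, 2179, 1721 and 2410.4 in the SMC libraries (log2 fold change -4.92 ± 0.16 SE, adjusted p = 6.98e-12). FIP replicate 3 stood above the other FIP libraries for Gata2, far below any SMC library. Gata4, a factor of heart, gut and gonad mesenchyme, had 5.94, 6.47, 4.77 and 2.72 in FIPs, against 106, 233, 154 and 53.1 in SMCs. Osr2 was 6.75-fold and Nr2f2, which directs vein identity, 2.88-fold higher in SMCs. Tbx15, a factor of dermal and limb mesenchyme, was 16.5-fold higher in SMCs and Tbx18, an epicardial and mural factor, 3.22-fold higher in FIPs. Prrx1 and Twist1, mesenchymal factors, passed the 2-fold limit narrowly at 2.07-fold and 2.04-fold and lost the call in 3 of 16 settings each. Tcf21, Gata6 and Osr1 were not called. Of 26 Hox genes none were higher in FIPs and 12 were higher in SMCs, with a median of -0.98, and as deposited 25 of 26 had a negative log2 fold change. Hoxa2 had 107, 95.2, 81.2 and 95.2 in FIPs, against 244, 366, 273 and 294 in SMCs, and Hoxd4 and Hoxb6 were 3.37-fold and 3.11-fold higher in SMCs. The 12 calls became 15 with equal totals and 8 after quantile normalization.

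Axon guidance genes were called in both directions, 8 of 40 higher in FIPs and 10 in SMCs. Robo1, a receptor for Slit cues, had 1969, 1806, 1972 and 1996 in FIPs, against 477, 506, 485 and 548 in SMCs. Ntn4, a netrin of basement membranes, had 377, 372, 482 and 398 in FIPs, against 52.6, 122, 130.2 and 84.8 in SMCs, also without overlap. Plxna4, Plxnb1, Sema3f, Epha2 and Epha3 were higher in SMCs, by 18.8-fold, 5.80-fold, 7.07-fold, 14.5-fold and 4.47-fold. Integrin alpha chains were called in both directions. Itga7, a laminin receptor of muscle, had 32.6, 41.6, 42.96 and 20.9 in FIPs, against 775, 906, 747 and 784 in SMCs. Itga4, a receptor for Vcam1 and fibronectin, had 18.8, 20.3, 18.1 and 19.95 in FIPs, against 460.1, 439.7, 209 and 269.8 in SMCs. Both were far lower in every FIP library, and Itga3 was 20.4-fold higher in SMCs. Itga11, a collagen receptor of fibroblasts, and Itgb5 were 2.38-fold and 2.06-fold higher in FIPs, and Itgb1, the shared beta chain, was not called. Among surface proteins used to sort stromal cells, Cd9 had 152, 132, 154 and 145 in FIPs, against 1229.8, 1364, 1196 and 1358 in SMCs and Cd82 was 14.5-fold higher in SMCs, whereas Thy1 and Cd44, a hyaluronan receptor, were 6.24-fold and 3.05-fold higher in FIPs. Cd63 and Cd81 were not called.

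Of 31 adipogenic genes 5 were higher in FIPs and 6 in SMCs, a split of 3 and 9 with equal totals and 4 and 4 after quantile normalization. Pparg, the master regulator of adipogenesis, had 441, 386, 444 and 503 in FIPs, against 91.6, 77.9, 196 and 73.6 in SMCs and was 4.35-fold higher in FIPs, below the APC mean of 1282. Ebf2, an early adipogenic factor, had 4989, 4995, 5201 and 5261 in FIPs, against 436, 244, 579 and 414 in SMCs (log2 fold change 3.67 ± 0.18 SE, adjusted p = 4.75e-10), above the APC mean of 3651. Cebpd was 2.46-fold higher in FIPs. Klf5, a factor of smooth muscle growth and adipogenesis, had 51.4, 65.6, 59.2 and 46.3 in FIPs, against 784, 1139, 974 and 904 in SMCs. Zfp423, a preadipocyte commitment factor, was 2.02-fold higher in SMCs and lost the call in 3 of 16 settings. Fasn, Scd2 and Klf4 were not called. Among 18 committed preadipocyte genes 5 were higher in FIPs and 2 in SMCs, and Fmo2, a monooxygenase among those higher in SMCs, had 2185, 2092, 2184 and 2302 in FIPs, against 18177, 20161, 16672 and 20809.9 in SMCs.

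Mesothelial genes were the list furthest from FIPs. Of 25 members, all tested, only Dpp4 was higher in FIPs and 21 were higher in SMCs, with a median of -4.14 as deposited, -4.36 with equal totals and -3.79 after quantile normalization. Upk3b, a uroplakin that marks mesothelium, had 73.2, 64.7, 91.7 and 94.3 in the FIP libraries, against 4022, 3278, 4311 and 2503 in the SMC libraries (log2 fold change -5.41 ± 0.16 SE, adjusted p = 3.67e-12). Pkhd1l1, a large receptor-like protein, had 53.4, 28.7, 62.1 and 73.5 in FIPs, against 4925, 3598, 5946 and 2814 in SMCs, and Msln, mesothelin, was 19.98-fold higher in SMCs. Lrrn4, Podxl, Krt19 and Ezr were 45.1-fold, 36.5-fold, 22.7-fold and 17.6-fold higher in SMCs, and in all 4 of these genes the populations did not overlap. Wt1, a factor of mesothelium and its descendants, was not called (2705 to 3180.4 in FIPs, against 2741 to 3723 in SMCs), nor was Igfbp6.

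The mesothelial values of SMCs were small beside those of MLCs. The 25 genes summed to 10966 to 12367 normalized counts in FIPs and 31445 to 43027 in SMCs, against a mean of 290707 in MLCs. For the 21 genes higher in SMCs, the SMC mean was 1.57% to 33.1% of the MLC mean, with a median of 7.96%. SMC replicate 3 was the highest SMC library for 19 of the 25 genes and replicate 4 the lowest for Upk3b, Lrrn4, Pkhd1l1 and Podxl. Their part in the other differences between FIPs and SMCs was not tested.

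**Figure D3:**
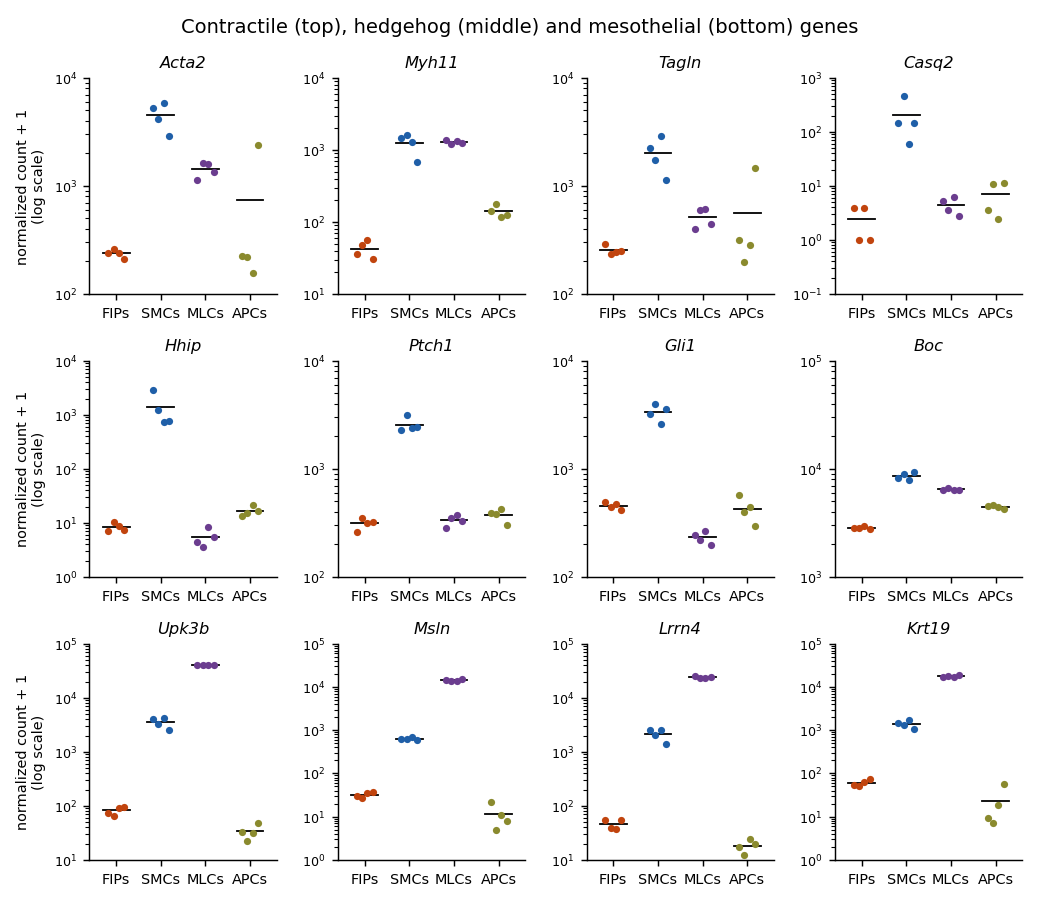
Normalized count plus 1 (log axes) by library in FIPs, SMCs, MLCs and APCs for contractile (top), hedgehog (middle) and mesothelial (bottom) genes; dots are libraries and bars are means. Hedgehog genes peak in SMCs, mesothelial genes peak in MLCs with SMCs between MLCs and the other populations, and APC replicate 4 stands above the other APC libraries for Acta2 and Tagln. Myh11 in MLCs lies within the SMC range.

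To describe how far this extended over all genes, the comparison was set beside MLCs against APCs, which shares no library with it. Of the 651 genes higher in FIPs than in SMCs, 324 were lower in MLCs than in APCs, 49.8% of that list and 19.2% of the 1687 genes called lower in MLCs, beside a background of 11.9% of all genes tested. Of the 1712 genes higher in SMCs, 933 were higher in MLCs than in APCs, 54.5% of that list and 43.7% of the 2136 genes called higher in MLCs, beside a background of 15.1%. Opposite calls were fewer. Of the genes higher in FIPs, 80 of 651 were higher in MLCs, 12.3% beside the background of 15.1%. Of the genes higher in SMCs, 248 of 1712 were higher in APCs, 14.5% beside 11.9%. Genes higher in SMCs thus exceeded the background in both directions. Across the 14185 genes, which are not independent, the differences correlated at r = -0.45. The highest mean of the 4 populations was in FIPs for 487 of the 651 genes, and in SMCs for 864 of the 1712 and in MLCs for 795 of them. Hhip (-1.67 in MLCs minus APCs), Ptch1 (-0.17), Gli1 (-0.85) and Tnc (-0.65) were among the genes higher in SMCs without a call higher in MLCs, and Upk3b (10.29) and Msln (10.50) among those that were.

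**Figure D4:**
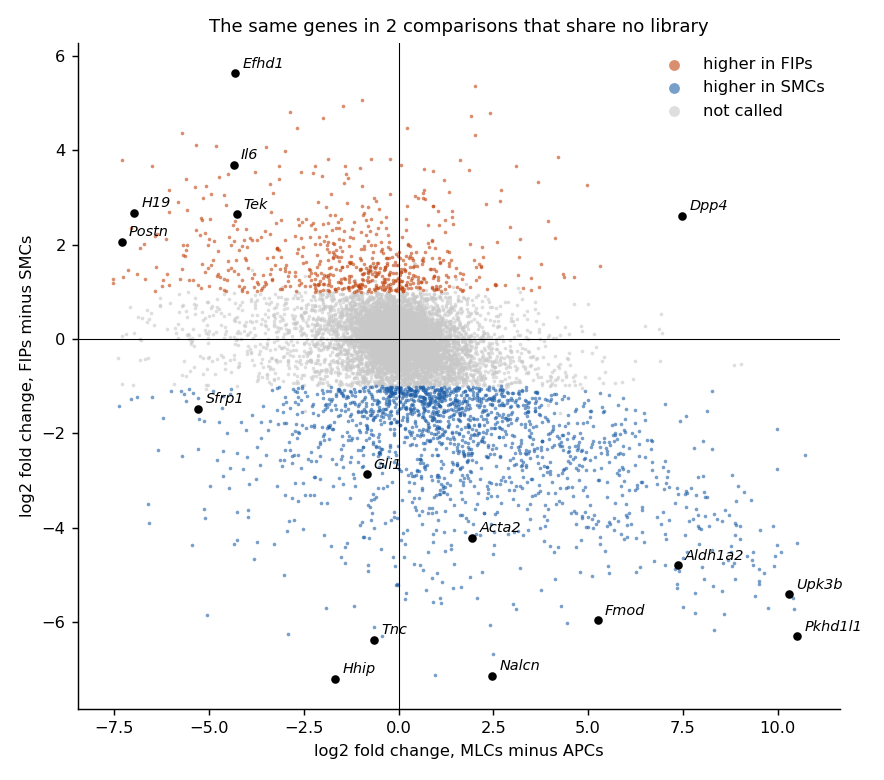
Log2 fold change of FIPs over SMCs (vertical axis) against that of MLCs over APCs (horizontal axis) for 14185 genes. Genes called in both comparisons gather in the upper left (324) and lower right (933), and Pearson's r across genes is -0.45.

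Apart from the mesothelial genes above, markers of other cell types were mostly low in both populations, with exceptions among endothelial and neural genes. Ptprc, the pan-leukocyte antigen CD45, and most lymphocyte and macrophage genes did not reach the limit for testing, and 11 of 18 macrophage and 10 of 12 lymphocyte genes were not tested. The sum of the macrophage list was 585 to 914 in FIPs, against 965 to 1219 in SMCs, and Csf1r, the receptor of Csf1, was its only call, with 26.7, 34.2, 28.6 and 19.04 in FIPs, against 307, 231, 316 and 179.8 in SMCs. The endothelial list summed to 8147 to 9077 in FIPs and 3980 to 4745 in SMCs, and 7 of 16 tested members were higher in FIPs and 5 in SMCs. Tek, the angiopoietin receptor, made up most of the FIP sum with 7579, 7412, 8276 and 8042 in FIPs, against 1362, 1099, 1322 and 1221 in SMCs. The junction protein Cdh5 had 63.3, 122, 121 and 57.1 in FIPs, against 1537, 2270.1, 1330.1 and 1653 in SMCs. Kdr, a VEGF receptor, was 9.95-fold higher in SMCs. Pecam1, an endothelial surface antigen, was low throughout and higher in FIPs, with 65.3, 123, 99.3 and 63.5 in FIPs, against 13.7, 45.9, 8.54 and 54.2 in SMCs. The part of endothelial RNA in the other differences was not tested. The Schwann and neural list gave 4 calls of 8 higher in SMCs, among them Mbp (15.7-fold) and Ngfr (3.37-fold), and Adipoq and Cfd of the mature adipocyte list were higher in SMCs at levels under 1000. The Schwann and neural list summed to 923 to 1040 in FIPs and 2010 to 2516 in SMCs. The sums were 106 to 127 in FIPs and 104 to 226 in SMCs for the erythroid list, and 1452 to 1613 in FIPs and 803 to 1234 in SMCs for the epididymal and testicular list.

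Cell cycle genes gave few calls but leaned toward SMCs. Of 38 members none were higher in FIPs and 2 were higher in SMCs, both of them D-type cyclins. The log2 fold change was positive for 5 of 38, and the median was -0.37 (-0.59 with equal totals, -0.30 after quantile normalization). Libraries did not overlap for 20 of the 38, a share near the 49.7% of all tested genes. The members summed to 26142 to 29897 normalized counts in FIPs, against 36047 to 39209.6 in SMCs. Ccnd1 had 245, 235, 238 and 218 in the FIP libraries, against 2145, 2137, 1655 and 1918 in the SMC libraries (log2 fold change -3.06 ± 0.086 SE, adjusted p = 2.83e-12), and Ccnd2 was 2.40-fold higher in SMCs. Ccnd3, Mki67 and Top2a were not called, at 0.24, -0.65 and -0.44. Immediate early genes, which rise during tissue dissociation, were abundant in both populations, with 3 of 27 called in each direction. That is 22.2% called, beside 16.7% of all tested genes. In 24 of the 27 the libraries did not overlap, beside 49.7% of all tested genes. Fos had 130309 to 138811 in FIPs, against 103738 to 120665 in SMCs, and Egr1 differed by 0.24. Myc, Klf6 and Egr2 were 3.13-fold, 2.99-fold and 2.67-fold higher in FIPs, and the orphan receptors Nr4a2 and Nr4a3 were 7.38-fold and 4.58-fold higher in SMCs. Among actin regulators and targets of YAP or SRF, 2 of 24 were higher in FIPs and 4 in SMCs, and Actn1, an actin crosslinker, had 213, 228, 224 and 213 in FIPs, against 2568, 2849, 2733 and 2522 in SMCs in a list whose median was -0.15.

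**Figure D5:**
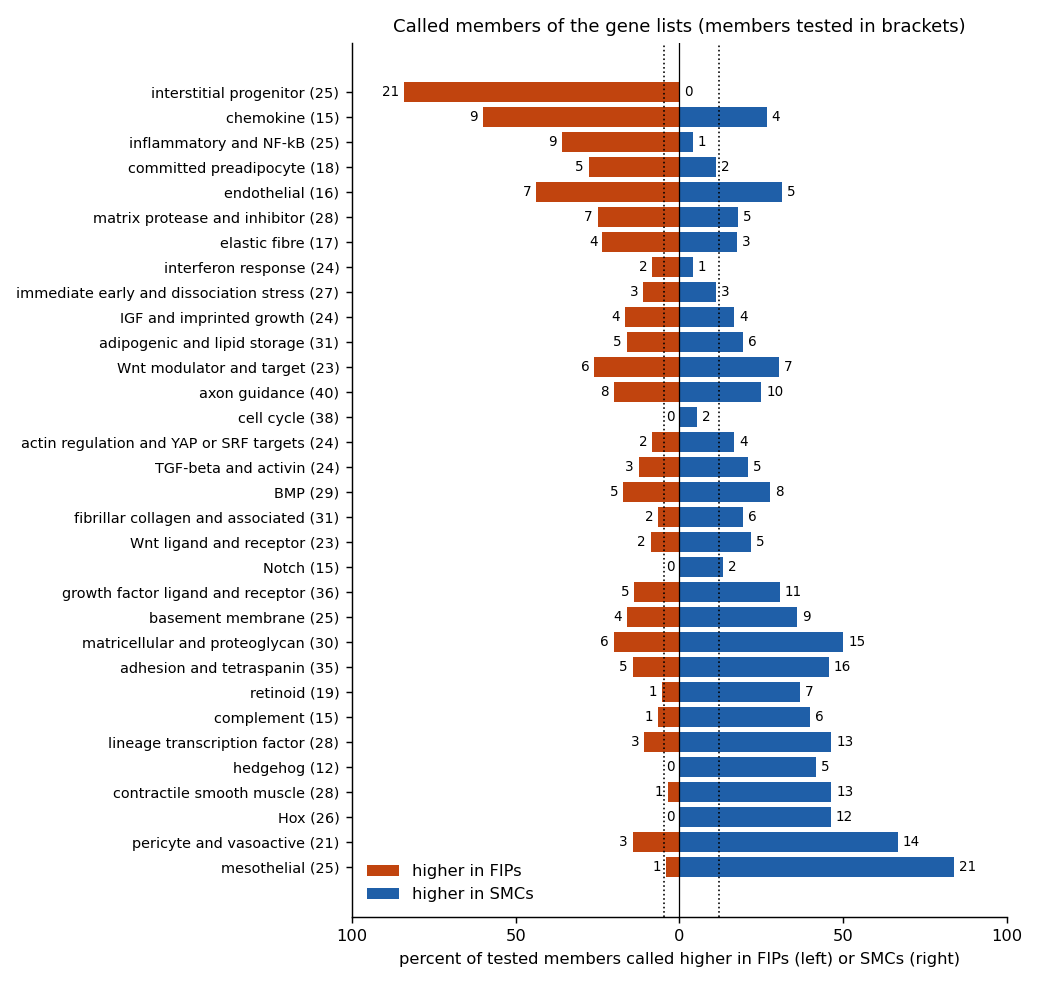
Percent of tested members called higher in FIPs (bars to the left) and higher in SMCs (bars to the right) for each gene list with at least 12 tested members. Dotted lines mark the share of all tested genes called, 4.59% and 12.1%; the interstitial progenitor list reaches furthest toward FIPs and the mesothelial list furthest toward SMCs.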

How the data were processed

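RNA of sorted Pdgfrb+ cells was sequenced as 16 libraries of 4 populations, of which 8 were compared. RNA was extracted with RNAqueous Micro and libraries were made with NEBNext Ultra II, per the labels' protocols. The tools named are DESeq2 1.6.3, featureCounts 1.4.6, HISAT2 2.0.1 and Trim Galore 0.4.1, with GRCm38 and mm10 as builds, per the submitters' processing notes. The authors deposited normalized counts per gene, a signal relative to library size factors. Values were whole multiples of 1 read within 0.01 for 100% of entries, which gave the read depths above. A value of 3 reads is 2.72 to 6.41 normalized counts, and precision at low levels is limited by counting error.

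Of 27179 entries, 1275 had no symbol (0.0812% to 0.134% of the values). They passed to the test under the same filter as the other entries and were left out only when genes were named. Genes that reached 10 in 4 or more of the 8 libraries were tested on log2(value + 1) with limma 3.58.1 (R 4.3.3, Benjamini-Hochberg adjustment), as FIPs minus SMCs. Fold changes are on that scale and understate the change of low genes. The same test was run on MLCs against APCs. Tables and figures used Python 3.11.15, pandas 2.3.3, numpy 2.4.6, scipy 1.17.1 and matplotlib 3.10.9, and the fit was tested on simulated data. Alternatives were other pseudocounts, filters and scalings, all 16 libraries in one fit, a replicate block, each library left out, and edgeR 4.0.16 and DESeq2 1.42.0 on the recovered reads of FIPs replicates 2 to 4 and SMCs replicates 1 to 4. A fit without replicate 4 of both populations and the block for interferon genes were added after seeing the data.

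The comparison, its members and the gene lists were chosen with earlier results of these data known. Genes were named by a rule: in each direction the 15 largest called fold changes whose higher mean was 100 or more, without overlap, the 5 largest called differences in mean, and for each list up to 5 called members per direction and up to 3 uncalled ones, besides marker genes. Myocd, Des, Rgs5, Kcnj8, Pi16, Ly6a, Wnt2, Cxcl2, Cxcl13, Ccl9, Cx3cl1, Nfkbia, Ifit1, Oas1a, Gli2 and Gli3, and the genes of the families in the closing section, were named after their values were seen. Gene positions are from RefSeq, found for 13892 of the genes tested. A few genes that the rule names are not reported here.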

Additional observations from a re-analysis of the deposited data

Results flagged for a closer look

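In 27 of 566 groups of 4 libraries, 1 library lay far from the other 3 by Dixon's test at the 95% level, and chance gives about 1 in 20 groups. The groups cover the 279 genes shown in the text or a plot. They also cover the sums of the mesothelial, contractile, endothelial and interstitial progenitor lists. Values are normalized counts. FIP replicate 1 stood above the other FIP libraries for Myocd (1.98, the others 0). FIP replicate 1 stood below the other FIP libraries for Ednra (307, the others 322 to 325), Elfn2 (0, the others 0.907 to 0.955), Cldn11 (0.989, the others 1.81 to 1.91), Art4 (3.96, the others 8.16 to 8.59) and Egr1 (103231, the others 108826 to 109339). The FIP values of Myocd, Elfn2 and Cldn11 are 0, 1 or 2 reads, too few for the test to measure a spread between libraries. FIP replicate 2 stood above the other FIP libraries for Npnt (169, the others 129.7 to 133), Dlk1 (33065, the others 27973 to 28621) and Fgf16 (263, the others 245 to 246). FIP replicate 2 stood below the other FIP libraries for Cald1 (6964, the others 7561 to 7608), Dpp4 (1645, the others 2139.9 to 2219), Vcam1 (2132, the others 2645 to 2737) and Robo1 (1806, the others 1969 to 1996). FIP replicate 3 stood above the other FIP libraries for Gata2 (102, the others 60.1 to 65.3), Col1a2 (465687, the others 420033 to 425093) and Dact3 (506, the others 439.8 to 449). FIP replicate 3 stood below the other FIP libraries for Itga3 (12.4, the others 20.3 to 20.9). FIP replicate 4 stood below the other FIP libraries for Plxna4 (59.9, the others 72.6 to 74.2). SMC replicate 2 stood above the other SMC libraries for Cyp26b1 (949, the others 168 to 236) and Hoxd4 (184, the others 104 to 113). SMC replicate 2 stood below the other SMC libraries for Igfbp3 (8386, the others 10318 to 10594). SMC replicate 3 stood above the other SMC libraries for Edn1 (32.0, the others 5.11 to 8.54), Oas1a (42.7, the others 22.5 to 23.5), Pparg (196, the others 73.6 to 91.6) and Wt1 (3723, the others 2741 to 2842). SMC replicate 3 stood below the other SMC libraries for Peg3 (30616, the others 31934 to 32084). SMC replicate 4 stood above the other SMC libraries for Ifit1 (151, the others 76.8 to 79.0). No explanation was tested, and the calls of these genes rest on all 4 libraries of each population.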

How the results depend on the processing

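No called gene named here changed direction under the alternatives run. The 2363 calls became 2371 and 2084 with pseudocounts of 0.1 and 8, 3216 with no filter on low values, 1571 (529 higher in FIPs, 1042 in SMCs) with a minimum of 50, 2617 with equal totals, 2294 after quantile normalization (1022 higher in FIPs), 2354 with all 16 libraries, 2407 by edgeR and 2371 by DESeq2. With no fold limit 7673 genes passed, 3838 higher in FIPs and 3835 in SMCs. Leaving out each library in turn gave 2280 to 2440 calls, 628 to 706 higher in FIPs and 1652 to 1782 in SMCs, and leaving out replicate 4 of both gave 2374, 627 and 1747. The replicate block gave 2374 calls, 660 higher in FIPs and 1714 in SMCs. Deviations of same-numbered libraries from their population means correlated at 0.0633, -0.00387, -0.00599 and 0.0997 over all genes, for replicates 1 to 4 in order. Libraries with different numbers correlated at -0.0817 to 0.0345, so replicates 1 and 4 lay above that range. The numbers were not treated as pairs because the labels do not say that a number marks a shared animal or sort. A shared batch was not tested. Interferon genes were highest in replicate 4, and with the block 4 interferon genes in place of 2 were called higher in FIPs. The share of genes higher in FIPs that were also higher in APCs was 44.2% after quantile normalization, beside 49.8%, and the share of genes higher in SMCs that were also higher in MLCs was 52.1% with equal totals, beside 54.5%. Of 234 called named genes 215 kept the call in each of 16 settings. Dkk2 lost it in 6, Lpl and Vegfd in 4, Prrx1, Twist1, Id3, Zfp423 and Itga2 in 3, Acsl1, Gbp2, Loxl1, Itgb5, Cdkn1c and Zyx in 2, and Rn45s, Klf15, Aspn, Timp1 and Igfbp5 in 1. Wnt5a, Igfbp6, Socs3, Plac8, Uchl1 and Col1a2, not called above, gained a call in at least 1 setting. The cause of these shifts was not tested. Depth limits the genes near 10 normalized counts most, above all in SMC replicate 3.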

Other observations

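The gene families here were collected by symbol and chosen after the data were seen. Of 42 tested genes whose symbols start with Kcn, most of them potassium channel subunits but also the antisense RNA Kcnq1ot1 and the channel-interacting protein Kcnip4, 5 were higher in FIPs and 21 in SMCs, with a median log2 fold change of -0.88. Kcnma1, the large-conductance calcium-activated channel of smooth muscle, had 86.1, 101, 85.9 and 101 in FIPs, against 345, 319, 260.5 and 237 in SMCs. Kcnd3, a voltage-gated channel, was 32.3-fold and Kcnab1, a channel beta subunit, 17.9-fold higher in SMCs, whereas Kcnk5, a leak channel, was 2.07-fold higher in FIPs. Among 16 regulators of G-protein signalling 4 were higher in FIPs and 7 in SMCs. Rgs16 had 552, 655, 866 and 896 in FIPs, against 317, 202, 389 and 250.3 in SMCs, and Rgs2 was 2.84-fold higher in SMCs. Claudins and keratins, epithelial genes that mesothelium also carries, each gave 1 call higher in FIPs and 5 higher in SMCs, of 11 and 9 tested. Of 245 solute carriers 11 were higher in FIPs and 42 in SMCs, and Slc6a4, the serotonin transporter, had 0, 0, 2.86 and 6.35 in FIPs, against 102, 118, 135 and 44.96 in SMCs.

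Genes of the translation and respiration machinery hardly differed. For cytosolic ribosomal proteins the median was -0.13 over 78 genes and for mitochondrial ribosomal proteins 0.14 over 77. Oxidative phosphorylation genes had a median of 0.15 over 88, with 2 called higher in SMCs.

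Within FIPs, replicate 3 was the highest library for 304 of the 651 genes higher there, and for 172 of 294 FIP-high genes with a mean of at least 1000. Within SMCs, replicate 4 was the highest for 201 of the 1712 genes, fewer than for replicates 1, 2 and 3 at 506, 426 and 579.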
